A study of Mus musculus with 12 samples.

Results

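Conditional deletion of Mtch2 was compared with its floxed control after priming, in 6 of the 12 libraries of the study. The 3 MTCH2-/- and the 3 MTCH2 F/F libraries were chosen by their labels (genotype and cell type), and no measured value entered the choice. MTCH2-/- EpiLCs came from MTCH2 F/F embryonic stem cells (ESCs) that had been treated with recombinant TAT-Cre, in which a cell-penetrating TAT peptide is joined to the recombinase. MTCH2 F/F EpiLCs came from the same lines without Cre and carry both floxed alleles. All lines were derived from C57BL/6 blastocysts at E3.5, and 3 clones were used, numbered 1 to 3, each of which gave 1 MTCH2-/- and 1 MTCH2 F/F library. Both groups were taken from 2i/L medium and cultured for 2 days with Activin A and FGF2, which turns naïve ESCs into epiblast-like cells (EpiLCs); LIF and the 2 inhibitors, of MEK and of GSK3, were thus withdrawn from both. Loss of the gene and exposure to Cre cannot be told apart in these libraries, and each clone is one line. The ESCs had been kept on irradiated mouse fibroblasts before a feeder-free day in N2B27, so fibroblast transcripts were followed as well.

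MTCH2 sits in the outer membrane of mitochondria, belongs to the carrier family by sequence, acts as the receptor of the cleaved death protein tBID and takes part in mitochondrial fusion. Naïve ESCs run on a circuit of transcription factors (Nanog, Esrrb, Klf4, Tfcp2l1, Tbx3) that LIF and 2i sustain. On priming the circuit is dismantled, Otx2 and Pou3f1 engage the formative programme, the de novo DNA methyltransferases are induced, and metabolism shifts towards glycolysis. The question addressed by these libraries is how far cells without MTCH2 complete that change.

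Counts per gene were deposited for 46477 gene symbols, and the EpiLC libraries held 17453328 to 21398559 counts each. Levels are given as CPM, the count scaled to a library total of 1000000, and changes as the log2 of MTCH2-/- over MTCH2 F/F EpiLCs with the standard error (SE) of edgeR's quasi-likelihood fit. A gene is called at a Benjamini-Hochberg adjusted p under 0.05 over the 17369 genes that passed the filter on low counts, and DE when it was also at least 2-fold changed. Replicates differed by more than counting noise (chi-square per degree of freedom 3.23 to 13 between EpiLC libraries of 1 group), so each counted as 1 sample.

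Mtch2 itself was close to lost. It had 2.18, 1.52 and 1.93 CPM in MTCH2-/- EpiLCs of clones 1, 2 and 3, against 122, 122 and 123 CPM in MTCH2 F/F EpiLCs, and 1.53% of the control level remained. The groups did not overlap, and an exact two-sided permutation test over the 3 libraries against 3 gave p = 0.1, the smallest it allows. The gene (ENSMUSG00000027282) lies on the forward strand of chromosome 2 of GRCm38, from 90847155 to 90866810. Gm2199, a processed pseudogene on chromosome 5 from 80900750 to 80901623, went with it, at 0.401, 0.367 and 0.483 CPM in MTCH2-/- EpiLCs and 24.1, 23.9 and 26.5 CPM in MTCH2 F/F EpiLCs. Its annotated transcript aligned to that of Mtch2 at 93% identity over 904 positions, so reads may be shared and the pseudogene's own level is uncertain. Mtch1, the paralog in the same membrane, rose by 0.31 on the log2 scale (SE 0.05, adjusted p = 0.000114), with 105, 111 and 107 CPM in MTCH2-/- EpiLCs and 85.8, 88.5 and 85.4 CPM in MTCH2 F/F EpiLCs.

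Of the genes tested, 5618 were called higher (32.3%) and 5241 lower (30.2%) in MTCH2-/- EpiLCs, 62.5% in all, and in 67% the libraries of the 2 groups did not overlap. DE genes numbered 2426 higher (14%) and 1221 lower (7.03%). At this background, a call alone says little about a gene, and sizes are given throughout. More DE genes were higher than lower at every level: 817 against 237 below a mean of 1 CPM, 966 against 526 from 1 to 10 CPM, 534 against 376 from 10 to 100 CPM, and 109 against 82 above 100 CPM. Of the 3647 DE genes 3626 changed in the same direction in all 3 clones, a count that their selection on these libraries largely fixes. Within every clone, 1387 of them differed by at least 2-fold on the log2(CPM + 1) scale, and 2311 with a pseudocount of 0.1. The EpiLC markers Otx2, Fgf5, Pou3f1, Dnmt3a, Dnmt3b, Sox3, Zic2 and Grhl2 were detected in every EpiLC library of both genotypes. The lowest value was 4.01 CPM (Sox3). In F/F ESCs their means ran from 0.509 CPM (Sox3) to 56.5 CPM (Dnmt3b), so detection alone does not separate EpiLCs from ESCs. Zic2 averaged 51.9 CPM in F/F ESCs, 57.8 CPM in MTCH2-/- EpiLCs and 97.6 CPM in MTCH2 F/F EpiLCs. All libraries also expressed the pluripotency factor Pou5f1, at 655, 818 and 749.8 CPM in MTCH2-/- EpiLCs and 974, 1028 and 972 CPM in MTCH2 F/F EpiLCs.

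**Figure D1:**
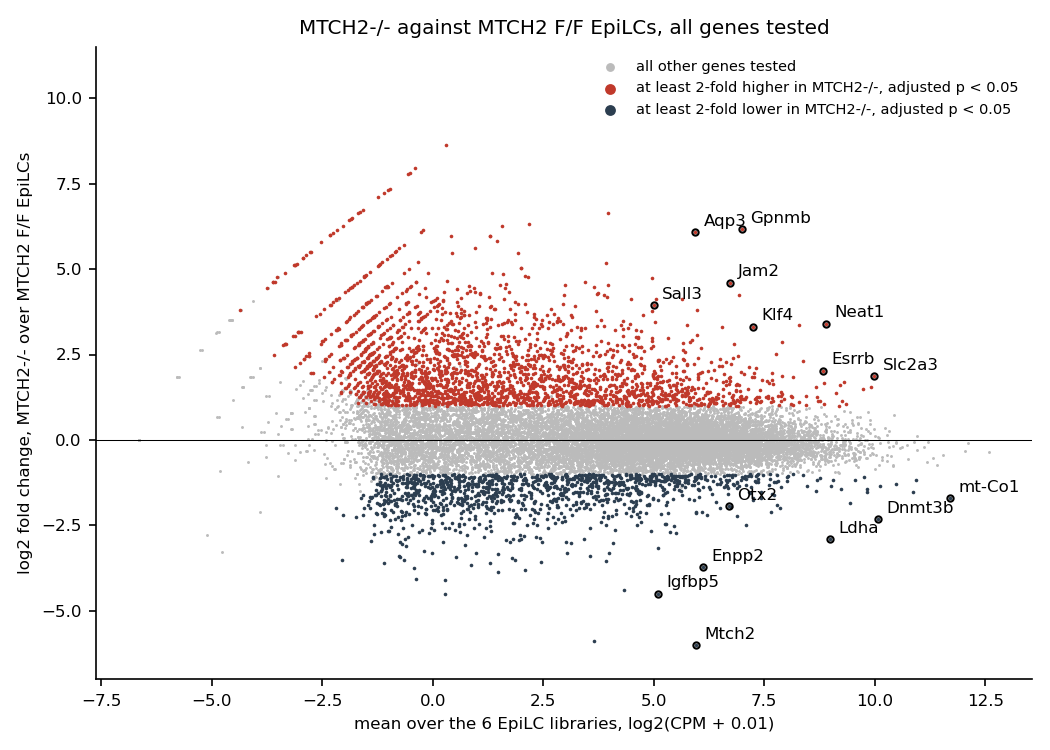
Log2 fold change of MTCH2-/- over MTCH2 F/F EpiLCs (vertical axis) against the mean level over the 6 EpiLC libraries (horizontal axis, log2(CPM + 0.01)), 1 point a gene, for 17369 genes. Red points are the 2426 DE genes that were higher and dark points the 1221 that were lower in MTCH2-/- EpiLCs; Mtch2 lies at the bottom at −6.01 and Gpnmb in the upper part at 6.16.

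Among genes that averaged 10 CPM or more, the rises of largest size included several that the F/F cells had all but silenced. Pla2g7, a secreted phospholipase that cleaves platelet-activating factor, had 23.9, 29.1 and 39.8 CPM in MTCH2-/- EpiLCs and 0.328, 0 and 0.645 CPM in MTCH2 F/F EpiLCs (log2 fold change 6.63, SE 0.39). Gpnmb, a glycoprotein of lysosomes and melanosomes, had 293, 188 and 269 CPM in MTCH2-/- EpiLCs and 4.20, 2.67 and 3.69 CPM in MTCH2 F/F EpiLCs (log2 fold change 6.16, SE 0.32). The glycerol and water channel Aqp3 followed, with 156, 117 and 91.2 CPM in MTCH2-/- EpiLCs and 1.64, 1.07 and 2.76 CPM in MTCH2 F/F EpiLCs. No library of one group reached the other for these genes, which was a condition of their selection. Mras, a small GTPase of the RAS family, rose by 5.18, the guidance cue Ntn1 by 4.74, the membrane-repair protein Myof by 4.63 and the junctional adhesion molecule Jam2 by 4.60. Crtac1, an extracellular matrix protein, rose by 4.53, Mst1, which encodes macrophage-stimulating protein, by 4.48, and Prdm14, a germline and naïve factor, by 4.30 (SEs 0.16 to 0.32). Several of these are genes of naïve ESCs: the mean level in MTCH2 F/F ESCs was 522 CPM for Jam2, 332 CPM for Aqp3 and 79.0 CPM for Mras.

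The deepest falls at that level, Mtch2 aside, included genes that were near silent in F/F ESCs. Igfbp5, which binds insulin-like growth factors, had 2.81, 2.36 and 3.47 CPM in MTCH2-/- EpiLCs and 62.8, 74.9 and 58.2 CPM in MTCH2 F/F EpiLCs (log2 fold change −4.50, SE 0.14). The chemokine Cxcl12 had 1.92, 1.68 and 1.83 CPM in MTCH2-/- EpiLCs and 42.3, 37.3 and 35.0 CPM in MTCH2 F/F EpiLCs (log2 fold change −4.39). Enpp2, or autotaxin, the enzyme that makes lysophosphatidic acid, had 4.95, 11.96 and 12.2 CPM in MTCH2-/- EpiLCs and 114, 136 and 134 CPM in MTCH2 F/F EpiLCs (log2 fold change −3.73). In F/F ESCs these genes averaged 1.82 CPM, 0.280 CPM and 0.0330 CPM. The myosin light chain Myl9 fell by 3.54 on the log2 scale, the tubulin Tubb4a fell by 3.40, the calcium sensor Doc2a fell by 3.31 and the carbonic anhydrase Car4 fell by 3.17. Fam57b fell by 3.03 and the lactate dehydrogenase subunit Ldha fell by 2.90. All had adjusted p values of 0.000103 or less, and none overlapped between the groups, which their selection required.

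In absolute terms the 8 largest gains were, in order, in the neuronal-type glucose transporter Slc2a3, Apoe, the phosphate carrier Slc20a1, the nuclear long non-coding RNA Neat1, fibronectin (Fn1), osteopontin (Spp1), the protease Ctsd and Esrrb. Neat1 had 949, 685 and 991 CPM in MTCH2-/- EpiLCs and 83.7, 64.7 and 99.9 CPM in MTCH2 F/F EpiLCs, a log2 fold change of 3.40 (SE 0.22). Slc20a1 had 1233, 1183 and 1359 CPM in MTCH2-/- EpiLCs and 429, 423 and 482 CPM in MTCH2 F/F EpiLCs. Apoe, which carries lipids, had 1714, 1397 and 1201 CPM in MTCH2-/- EpiLCs and 382, 408 and 689.5 CPM in MTCH2 F/F EpiLCs, and the F/F library of clone 3 was the highest of its group. The 8 largest losses were, in order, in mt-Co1, mt-Nd1, Hsp90ab1, Pkm, Dnmt3b, Actb, mt-Cytb and Tubb5. Actb fell by 0.74 (SE 0.07) and Hsp90ab1 fell by 0.37 (SE 0.07), so genes often used to scale such data were themselves lower. The median over all genes tested was 0.02.

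The naïve programme was the clearest block of higher genes. All 36 listed naïve genes were measured, of which 28 rose, 3 fell and 5 did not pass the test, with a median log2 fold change of 1.65 against 0.02 for all genes tested. The shares were 77.8% higher and 8.33% lower, beside 32.3% and 30.2% of all genes tested. Over the whole list the summed level was 8582 to 9248 CPM in MTCH2-/- EpiLCs and 3925 to 4837 CPM in MTCH2 F/F EpiLCs. Set against the F/F ESCs, the median member stood at 72.4% of its ESC level in MTCH2-/- EpiLCs and at 28.6% in MTCH2 F/F EpiLCs. The list and the libraries had been looked at before, so its direction is a description.

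Among the core factors, Klf4 had 259.6, 297 and 276 CPM in MTCH2-/- EpiLCs and 23.04, 16.3 and 45.0 CPM in MTCH2 F/F EpiLCs (log2 fold change 3.31, SE 0.31, adjusted p = 1.13e-05). Tbx3, a T-box factor downstream of LIF, had 225, 229.9 and 235 CPM in MTCH2-/- EpiLCs and 8.08, 6.11 and 22.99 CPM in MTCH2 F/F EpiLCs (log2 fold change 4.24, SE 0.38). Esrrb, an orphan nuclear receptor, had 751, 723 and 727 CPM in MTCH2-/- EpiLCs and 145, 139 and 256 CPM in MTCH2 F/F EpiLCs. In each of the 3 genes the F/F library of clone 3 was the highest control and still lay well below every MTCH2-/- library. Nanog had 340.5, 410.4 and 381 CPM in MTCH2-/- EpiLCs and 96.0, 74.96 and 136 CPM in MTCH2 F/F EpiLCs (log2 fold change 1.88, SE 0.18), and Tfcp2l1 had 429, 380.4 and 450.2 CPM in MTCH2-/- EpiLCs and 47.3, 43.6 and 81.97 CPM in MTCH2 F/F EpiLCs. Klf2, Klf5 and Nr5a2, further factors of the circuit, rose by 2.85, 2.21 and 3.44. Zfp42, or Rex1, a marker whose loss tracks the exit from naïve pluripotency, rose less, by 1.21 (SE 0.07), with 88.7, 93.7 and 91.0 CPM in MTCH2-/- EpiLCs and 37.2, 37.6 and 43.4 CPM in MTCH2 F/F EpiLCs. Without the F/F library of clone 3, 30 members rose and the median was 1.84.

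Not every naïve gene was higher. Dppa3, also known as Stella, had 1.02, 1.10 and 0.917 CPM in MTCH2-/- EpiLCs and 2.67, 1.55 and 2.17 CPM in MTCH2 F/F EpiLCs and fell by 1.06 (SE 0.26, adjusted p = 0.00217). The E-cadherin gene Cdh1 fell by 0.50 (SE 0.08). Fgf4 had a log2 fold change of 0.27 (adjusted p = 0.0114), a call lost when MTCH2-/- library 2 or F/F library 1 or 2 was left out. The LIF receptor gene Lifr (0.13, adjusted p = 0.209) and the Nodal co-receptor gene Tdgf1 (0.19, adjusted p = 0.0699) did not pass the test. Tdgf1 passed it with the clone as a block (adjusted p = 0.0189). Of the factors shared by both states, Sox2 rose by 1.20 (SE 0.14), with 346, 360.2 and 331 CPM in MTCH2-/- EpiLCs and 124, 133 and 196 CPM in MTCH2 F/F EpiLCs, while Pou5f1 fell by 0.42 (SE 0.09). Sall4 was not called without the block (0.14, adjusted p = 0.112) and was with it (adjusted p = 0.0198).

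**Figure D2:**
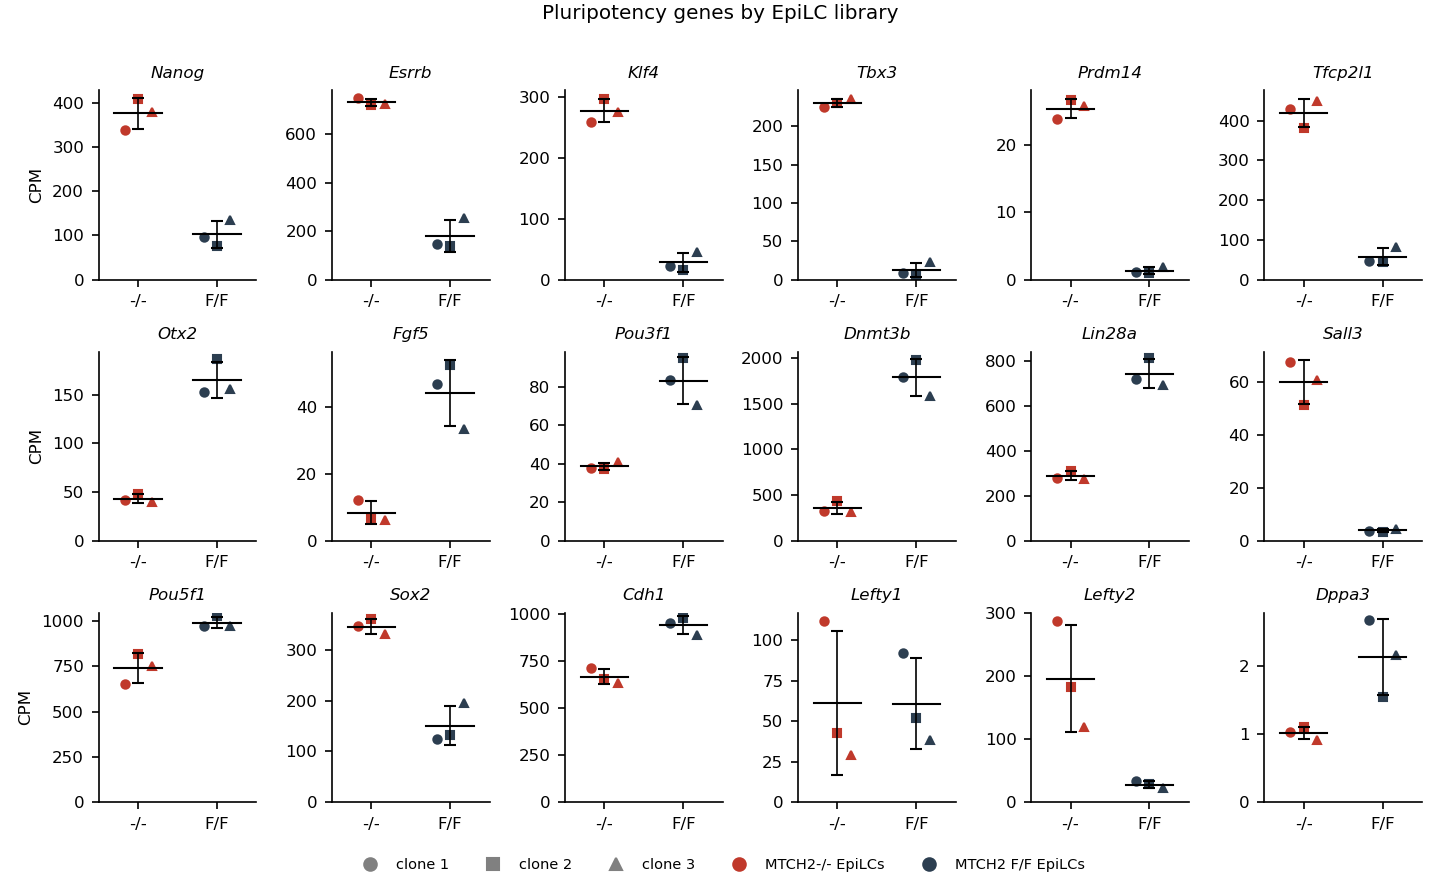
CPM of 18 genes in the MTCH2-/- (red, left) and MTCH2 F/F (dark, right) EpiLC libraries, with symbols for the 3 clones, a horizontal line for the mean and bars for the SD (n = 3 libraries). The naïve factors of the top row are higher in every MTCH2-/- library, Otx2, Fgf5, Pou3f1, Dnmt3b and Lin28a in every F/F library, and for Lefty1 the groups overlap.

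Genes of the formative and primed state went the other way. Of 35 tested, 25 fell, 6 rose and 4 did not pass, with a median of −1.10. Called lower were 71.4% and higher 17.1%, beside 30.2% and 32.3% of all genes tested. The summed level was 2216 to 2536 CPM in MTCH2-/- EpiLCs and 5166 to 6007 CPM in MTCH2 F/F EpiLCs. Otx2, the homeodomain factor that redirects the enhancers of primed cells, had 42.3, 48.0 and 39.3 CPM in MTCH2-/- EpiLCs and 153, 187 and 156 CPM in MTCH2 F/F EpiLCs (log2 fold change −1.94, SE 0.17, adjusted p = 1.07e-06). Fgf5, the usual marker of the post-implantation epiblast, had 12.3, 6.56 and 6.18 CPM in MTCH2-/- EpiLCs and 46.8, 52.4 and 33.2 CPM in MTCH2 F/F EpiLCs (log2 fold change −2.40, SE 0.32). The POU factor Pou3f1, or Oct6, had 38.0, 37.2 and 40.8 CPM in MTCH2-/- EpiLCs and 83.6, 94.9 and 70.5 CPM in MTCH2 F/F EpiLCs. For all 3 genes every MTCH2-/- library was above the F/F ESC mean (10.4 CPM for Otx2, 0.510 CPM for Fgf5 and 2.09 CPM for Pou3f1), and all were below every MTCH2 F/F EpiLC library. Sox3 fell by 2.49, Lef1 by 1.76, the Notch-related factor Hes6 by 1.81 and Lin28a, an RNA-binding protein that blocks let-7 maturation, by 1.36.

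The exceptions were few but large. Sall3, a zinc finger relative of Sall4, had 67.7, 51.2 and 60.8 CPM in MTCH2-/- EpiLCs and 3.71, 3.39 and 4.57 CPM in MTCH2 F/F EpiLCs (log2 fold change 3.95, SE 0.13). Its mean in F/F ESCs was 26.6 CPM, so the MTCH2-/- EpiLCs exceeded the naïve level as well. Foxd3 rose by 1.24 (SE 0.14). Lefty2, a Nodal antagonist induced by Activin, had 287, 182 and 119 CPM in MTCH2-/- EpiLCs and 32.9, 29.0 and 21.5 CPM in MTCH2 F/F EpiLCs (log2 fold change 2.82, SE 0.50). Its neighbour Lefty1 ordered by clone and not by genotype, at 112, 43.0 and 29.0 CPM in MTCH2-/- EpiLCs and 92.1, 51.8 and 38.5 CPM in MTCH2 F/F EpiLCs (adjusted p = 0.985).

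Genes of DNA methylation were called in both directions at about the background rate, 6 of 20 higher and 6 lower. Each share was 30%, beside 32.3% higher and 30.2% lower over all genes tested. Both de novo methyltransferases were lower: Dnmt3b had 329.8, 429 and 312 CPM in MTCH2-/- EpiLCs and 1792, 1979 and 1583 CPM in MTCH2 F/F EpiLCs (log2 fold change −2.32, SE 0.14), and Dnmt3a had 301, 338 and 263 CPM in MTCH2-/- EpiLCs and 1022, 1190.5 and 1046 CPM in MTCH2 F/F EpiLCs (log2 fold change −1.85, SE 0.13). Dnmt3l, their catalytically inactive partner, was not called (0.19, adjusted p = 0.389) although its groups did not overlap, and in the fit of the 6 EpiLC libraries alone it was (adjusted p = 0.0224). The maintenance pair changed by less, Uhrf1 falling by 0.56 and Dnmt1 by 0.17, and the Dnmt1 call was lost without MTCH2-/- library 3. Tet2, the dioxygenase of naïve cells, rose by 2.13 (SE 0.17), whereas Tet1 (0.01) and Tet3 (0.02) were not called.

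Genes of the germline whose promoters are kept silent by DNA methylation were mostly higher, with 18 of 28 tested called higher, 3 lower and a median of 0.74. The shares were 64.3% higher and 10.7% lower, beside 32.3% and 30.2% of all genes tested. Fkbp6, a co-chaperone of the piRNA pathway, had 57.5, 47.9 and 25.4 CPM in MTCH2-/- EpiLCs and 5.08, 5.96 and 2.87 CPM in MTCH2 F/F EpiLCs (log2 fold change 3.21, SE 0.52), and the clones spread widely within each genotype. Taf7l rose by 2.58, Dazl by 1.43 and Stk31 by 1.11, while Mael fell by 0.47. With the clone as a block 6 members were called lower. The germline promoters are shown because a CACGTG box, the binding letters of many basic helix-loop-helix factors and a sequence whose CpG can be methylated, stood in 12 of the 24 windows found (50%) against 8.38% of the 11387 windows of tested genes. Windows are the 250 bases before the first listed RefSeq start (GRCm38.p6), read on both strands, with CACGTG in capitals. Fkbp6 is at chr5:135350045-135350294 (reverse strand) and Stk31 at chr6:49395289-49395538 (forward strand).
Fkbp6: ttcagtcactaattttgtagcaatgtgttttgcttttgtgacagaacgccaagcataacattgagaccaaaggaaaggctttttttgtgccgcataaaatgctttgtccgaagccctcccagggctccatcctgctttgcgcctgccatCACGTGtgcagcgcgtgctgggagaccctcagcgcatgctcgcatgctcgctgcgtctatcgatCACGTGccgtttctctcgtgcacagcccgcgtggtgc
Stk31: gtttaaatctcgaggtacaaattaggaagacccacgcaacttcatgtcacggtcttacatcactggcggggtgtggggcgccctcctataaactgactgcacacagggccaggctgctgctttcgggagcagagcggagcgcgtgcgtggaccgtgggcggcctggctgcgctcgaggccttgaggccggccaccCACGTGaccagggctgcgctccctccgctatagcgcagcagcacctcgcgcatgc
Mael, which fell, and Sycp3, which was not called (0.38, adjusted p = 0.143), carry a box in their windows too. No CACGTG was found in the window of Dazl, which rose. A match is a description of letters and not a bound or methylated site.

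Glycolysis genes were lower as a group, with sharp exceptions at single isoforms. All 34 listed genes were tested, of which 19 fell, 8 rose and 7 did not pass (median −0.44, against 0.02 for all genes tested). Called lower were 55.9% and higher 23.5%, beside 30.2% and 32.3% of all genes tested. The sum over the list was 6625 to 6951 CPM in MTCH2-/- EpiLCs and 10146 to 10449 CPM in MTCH2 F/F EpiLCs. The steps from the aldol split to lactate were lower throughout in their main isoforms. The triose isomerase Tpi1 had 69.0, 81.7 and 76.1 CPM in MTCH2-/- EpiLCs and 356, 338 and 283 CPM in MTCH2 F/F EpiLCs (log2 fold change −2.11, SE 0.10). Ldha, which turns pyruvate into lactate, had 103, 140.4 and 116 CPM in MTCH2-/- EpiLCs and 933, 1011 and 741 CPM in MTCH2 F/F EpiLCs (SE 0.15, adjusted p = 7.63e-09). Slc16a3, the lactate exporter MCT4, had 37.2, 49.4 and 38.6 CPM in MTCH2-/- EpiLCs and 197, 223 and 166 CPM in MTCH2 F/F EpiLCs (log2 fold change −2.23). The pyruvate kinase Pkm fell by 1.17, the aldolases Aldoa and Aldoc by 1.34 and 1.59, the phosphoglycerate kinase Pgk1 by 1.19, the enolase Eno1 by 1.5 and Gapdh by 0.53.

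At 4 steps the isoforms were not called in the same direction. The liver-type phosphofructokinase Pfkl fell by 1.89 (SE 0.08) while the platelet type Pfkp rose by 0.87 (SE 0.08). Eno2, the neuronal enolase, rose by 1.49 (SE 0.19). At the point of glucose entry Slc2a3 had 1723, 1539 and 1542 CPM in MTCH2-/- EpiLCs and 418, 331 and 565 CPM in MTCH2 F/F EpiLCs (log2 fold change 1.87), whereas Slc2a1 fell by 0.26, a call lost without MTCH2-/- library 1. Ldhb was not called (−0.09, adjusted p = 0.597), with 191, 150.3 and 126 CPM in MTCH2-/- EpiLCs and 156, 150.3 and 192 CPM in MTCH2 F/F EpiLCs. Hexokinase 2, Hk2, was not called either (−0.13). The carriers that bring pyruvate into mitochondria, Mpc1 and Mpc2, rose by 1.06 (SE 0.27) and 0.56 (SE 0.17), while the kinases that shut pyruvate dehydrogenase, Pdk1 and Pdk3, fell by 1.24 and 0.99.

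Upstream windows of 3 glycolytic genes are shown because hypoxia-inducible and MYC-type factors read an ACGTG core in such promoters. The core, which also lies within every CACGTG box, stood on either strand in 12 of 33 glycolysis windows (36.4%) against 21.4% of all windows. It is in capitals below. Ldha is at chr7:46845554-46845803 (forward strand), Pgk1 at chrX:106186850-106187099 (forward strand) and Slc16a3 at chr11:120948817-120949066 (forward strand), and they hold 5, 2 and 2 matches, a CACGTG box counting on both strands.
Ldha: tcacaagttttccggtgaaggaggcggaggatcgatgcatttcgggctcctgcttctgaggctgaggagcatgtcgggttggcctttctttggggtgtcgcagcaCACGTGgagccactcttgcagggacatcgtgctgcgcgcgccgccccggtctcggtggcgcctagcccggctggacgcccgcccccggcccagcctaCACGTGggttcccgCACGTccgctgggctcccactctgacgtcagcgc
Pgk1: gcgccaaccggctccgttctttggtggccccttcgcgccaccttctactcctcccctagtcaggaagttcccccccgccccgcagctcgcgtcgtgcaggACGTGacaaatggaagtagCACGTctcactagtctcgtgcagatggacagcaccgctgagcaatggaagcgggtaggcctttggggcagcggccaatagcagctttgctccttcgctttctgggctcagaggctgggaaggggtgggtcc
Slc16a3: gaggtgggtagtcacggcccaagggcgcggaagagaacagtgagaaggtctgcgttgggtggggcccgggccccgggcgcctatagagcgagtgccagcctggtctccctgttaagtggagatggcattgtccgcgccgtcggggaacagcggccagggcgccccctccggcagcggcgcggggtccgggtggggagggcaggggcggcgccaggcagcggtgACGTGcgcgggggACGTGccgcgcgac
All 3 of these genes were lower in MTCH2-/- EpiLCs and were picked with their values known. Slc2a1, Pfkm and Pdhb, whose windows also hold the core, fell by 0.26 or were not called. A match describes letters only, and the part of such factors in these changes was not tested.

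**Figure D3:**
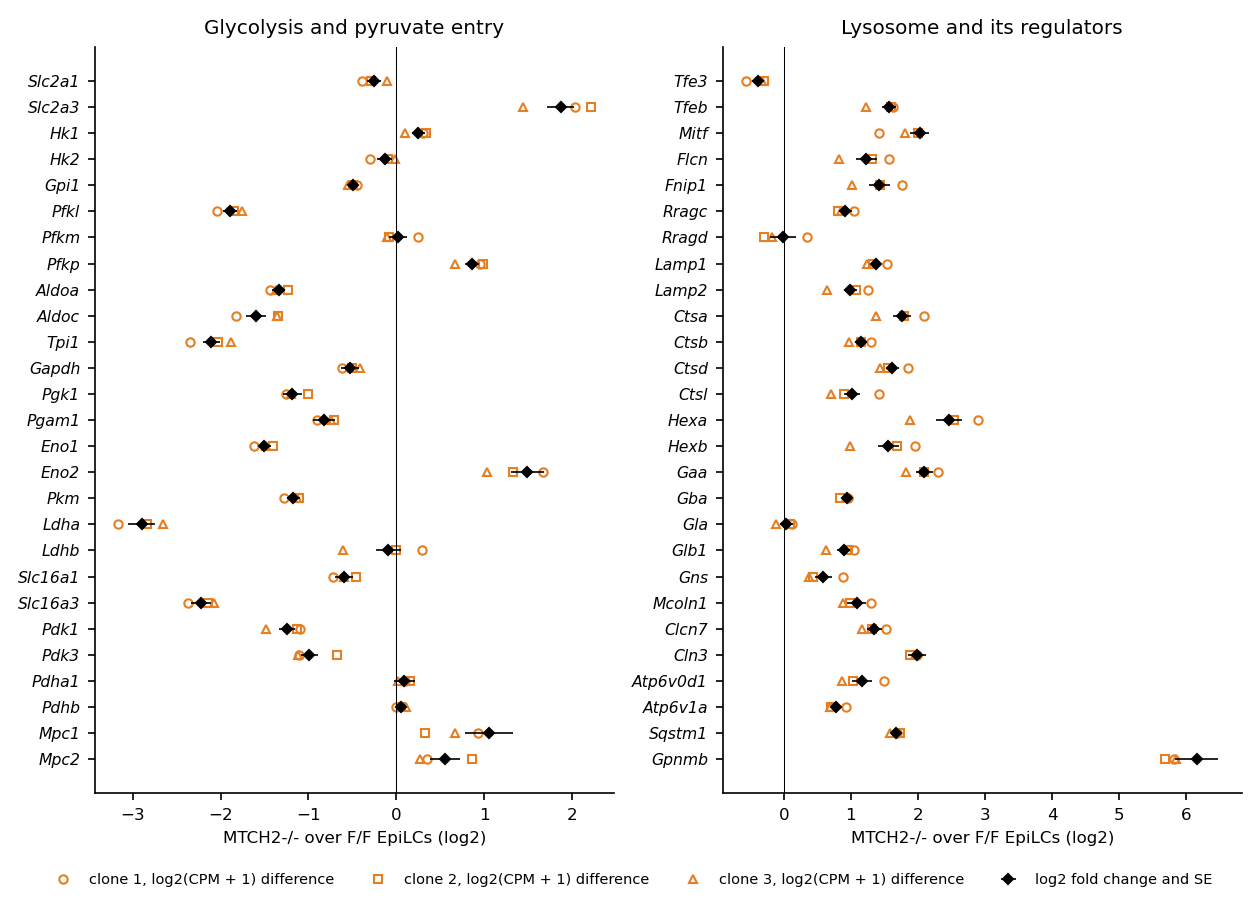
Log2 change of MTCH2-/- over MTCH2 F/F EpiLCs for genes of glycolysis and pyruvate entry in pathway order (left) and for genes of the lysosome (right). Diamonds are the fitted log2 fold changes with their SE, and open symbols the within-clone differences of log2(CPM + 1); Ldha, Slc16a3 and Tpi1 are the lowest on the left, and Gpnmb the highest on the right at 6.16.

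Lysosomal genes were higher almost throughout. Of 50 tested, 40 rose, 3 fell and 7 did not pass, with a median of 1.0 and a summed level of 8724 to 10247 CPM in MTCH2-/- EpiLCs against 4209 to 4719.6 CPM in MTCH2 F/F EpiLCs. The shares were 80% higher and 6% lower, beside 32.3% and 30.2% of all genes tested. The list is built round the CLEAR network, the genes that the factors TFEB, TFE3 and MITF switch on when they enter the nucleus. Among those factors Tfeb rose by 1.57 (SE 0.10) and Mitf by 2.03 (SE 0.15). Tfe3, whose nuclear exit is a step of naïve exit, fell by 0.39 (SE 0.09), with 149, 193 and 174 CPM in MTCH2-/- EpiLCs and 219.9, 236 and 219.6 CPM in MTCH2 F/F EpiLCs. Folliculin, Flcn, which with its partners holds TFE3 in the cytoplasm, had 251, 205 and 210.4 CPM in MTCH2-/- EpiLCs and 84.3, 81.6 and 118 CPM in MTCH2 F/F EpiLCs. Rragd, a Rag GTPase gene of the same gate, was not called (−0.02, adjusted p = 0.949).

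Enzymes and membrane proteins of the lysosome rose by differing amounts, and some were not called. The protease Ctsd had 993, 800.0 and 895 CPM in MTCH2-/- EpiLCs and 275, 271 and 331 CPM in MTCH2 F/F EpiLCs (log2 fold change 1.62, SE 0.10). The hexosaminidase subunit Hexa had 248, 183 and 178 CPM in MTCH2-/- EpiLCs and 32.4, 30.8 and 47.6 CPM in MTCH2 F/F EpiLCs (log2 fold change 2.46, SE 0.19). The membrane protein Lamp1 had 887, 776 and 738 CPM in MTCH2-/- EpiLCs and 304, 308 and 313 CPM in MTCH2 F/F EpiLCs. In each the MTCH2-/- library of clone 1 was the highest. The acid glucosidase Gaa rose by 2.10, Cln3 by 1.98, Ctsa by 1.77, the calcium channel Mcoln1 by 1.09 and the autophagy receptor Sqstm1 by 1.67. The CACGTG box is the centre of the CLEAR element, so its share in the lysosomal list is partly set by the choice of genes. It stood in 13 of 40 lysosomal windows (32.5%), against 8.38% of all windows and 4 of 33 glycolysis windows (12.1%). Those of Ctsd, at chr7:142387828-142388077 (reverse strand), and Mcoln1, at chr8:3500269-3500518 (forward strand), each hold it 2 times and are given with the box in capitals.
Ctsd: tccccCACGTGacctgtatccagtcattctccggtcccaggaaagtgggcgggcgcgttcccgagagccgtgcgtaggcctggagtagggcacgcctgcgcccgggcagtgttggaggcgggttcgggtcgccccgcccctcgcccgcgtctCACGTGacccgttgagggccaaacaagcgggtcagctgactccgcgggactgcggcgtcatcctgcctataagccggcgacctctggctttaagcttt
Mcoln1: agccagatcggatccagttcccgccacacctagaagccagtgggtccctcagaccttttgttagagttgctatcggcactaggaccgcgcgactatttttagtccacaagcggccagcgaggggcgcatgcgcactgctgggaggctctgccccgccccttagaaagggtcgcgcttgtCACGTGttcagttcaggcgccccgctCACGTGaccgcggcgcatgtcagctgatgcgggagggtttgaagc
Gla and Naglu carry a box in their windows too and were not called, and no CACGTG was found in the window of Hexa, the first of those listed for that gene.

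The transcripts of the mitochondrial genome fell together. All 7 of its protein-coding genes that passed the filter were lower in every MTCH2-/- library, by 1.21 to 1.70 on the log2 scale (SEs 0.06 to 0.07). mt-Co1, the catalytic subunit of cytochrome oxidase, had 1562, 1573 and 1569.6 CPM in MTCH2-/- EpiLCs and 4956, 5065 and 5266 CPM in MTCH2 F/F EpiLCs. mt-Nd6, the only one encoded on the light strand, had 154, 158 and 157 CPM in MTCH2-/- EpiLCs and 345, 366 and 379 CPM in MTCH2 F/F EpiLCs. All transcripts whose symbols start with mt- held 0.521% to 0.534% of the counts in MTCH2-/- EpiLCs and 1.41% to 1.46% in MTCH2 F/F EpiLCs. The other 6 protein-coding genes of the mitochondrial genome had 0 to 4 counts in each EpiLC library and could not be compared. Its ribosomal RNA genes, mt-Rnr1 and mt-Rnr2, also passed the filter and were called lower. In counts, mt-Rnr2 had 5339, 4737 and 5158 in MTCH2-/- EpiLCs and 8310, 9481 and 8193 in MTCH2 F/F EpiLCs. For mt-Rnr1 they were 1873, 1817 and 1900 in MTCH2-/- EpiLCs and 4466, 5323 and 4574 in MTCH2 F/F EpiLCs.

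Nuclear genes of the respiratory chain were lower by much less. Of 80 tested, 55 fell, 2 rose and 23 did not pass, with a median of −0.31. Called lower were 68.75% and higher 2.5%, beside 30.2% and 32.3% of all genes tested. The hinge protein Uqcrh of complex III had 36.4, 40.4 and 37.4 CPM in MTCH2-/- EpiLCs and 78.6, 81.8 and 68.4 CPM in MTCH2 F/F EpiLCs (log2 fold change −1.0, SE 0.07), and the ATP synthase subunit Atp5a1 fell by 0.47 (SE 0.06). Ndufs1 (−0.07, adjusted p = 0.268) and Sdha (−0.03, adjusted p = 0.671), core subunits of complexes I and II, were not called. Cox6a2, the muscle form of a complex IV subunit, went the other way, with 4.23, 7.24 and 6.08 CPM in MTCH2-/- EpiLCs and 0.109, 0.388 and 0.0586 CPM in MTCH2 F/F EpiLCs. Short messages were lower in general: among 9066 protein-coding genes whose mean level reached 10 CPM, the median log2 fold change was −0.35 for the 255 with a longest transcript of up to 1000 bases and 0.10 for the 627 above 8000. Of the 80 respiratory genes 37 were that short, with a median of −0.35 against −0.27 for the rest; the part of transcript length in the list's median was not tested.

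Genes of mitochondrial shape changed by less than 2-fold. Mfn1 (0.15, adjusted p = 0.0893), Mfn2 (−0.02, adjusted p = 0.816) and Opa1 (−0.11, adjusted p = 0.113), the genes of the fusion GTPases, were not called, and Dnm1l, the fission GTPase, fell by 0.33 (SE 0.06). None of the 24 tested genes of this group was DE, against 21% of all genes tested. Of them 6 were called higher and 10 lower (25% and 41.7%, beside 32.3% and 30.2% of all genes tested). At an unadjusted p under 0.05 the counts were 6 and 10. Mitochondrial DNA polymerase Polg rose by 0.27 and the RNA polymerase Polrmt by 0.43, while the methyltransferase Tfb1m fell by 0.88 and the single-strand binding protein Ssbp1 by 0.69. Tfam had a log2 fold change of −0.15 (adjusted p = 0.0346), a call lost in 6 of the 13 alternative fits. In the TCA cycle and glutamine use 21 of 30 genes fell and 5 rose (median −0.33). The aminotransferase Got2 fell by 1.02 and fumarase Fh1 by 0.93, while Idh2 rose by 0.57 and glutamine synthetase Glul by 0.60. The nucleotide carrier Slc25a5 fell by 0.77 and the uncoupling protein Ucp2 by 1.11.

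Signalling genes moved in both directions. Their counts stand beside 32.3% of all genes tested called higher and 30.2% lower. In the LIF and STAT3 pathway 16 of 21 tested genes rose and 3 fell, although no LIF was added (median 0.91). The feedback inhibitor Socs3 had 46.8, 51.5 and 51.8 CPM in MTCH2-/- EpiLCs and 15.1, 17.8 and 19.3 CPM in MTCH2 F/F EpiLCs (log2 fold change 1.52, SE 0.10). Il6ra, a receptor subunit, rose by 3.48, Stat3 by 1.05 and the shared receptor Il6st by 0.67, but the target Pim1 fell by 1.14. In the FGF and ERK group 13 of 25 rose and 5 fell. The feedback genes Spry2 and Spry4 rose by 0.67 and 0.75, Dusp6 was not called without the clone block (−0.16, adjusted p = 0.138) and was with it (adjusted p = 0.032), and Etv5 fell by 0.36. The immediate early gene Fos had 38.2, 27.7 and 37.8 CPM in MTCH2-/- EpiLCs and 7.37, 6.69 and 8.15 CPM in MTCH2 F/F EpiLCs, while Egr1 was not called (0.29, adjusted p = 0.25).

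Both arms of the TGF-beta family held more higher than lower genes. Over all genes tested, 32.3% were called higher and 30.2% lower. In the Nodal and Activin group 13 of 23 rose and 4 fell (median 0.40). Nodal had 105, 92.8 and 99.9 CPM in MTCH2-/- EpiLCs and 52.4, 43.2 and 53.3 CPM in MTCH2 F/F EpiLCs (log2 fold change 1.0, SE 0.09), the inhibitor Smad7 rose by 0.60 and the co-repressor Skil fell by 1.59. In the BMP group 13 of 22 rose and 3 fell (median 0.67). Bmp4 had 8.82, 8.602 and 11.3 CPM in MTCH2-/- EpiLCs and 1.09, 0.873 and 0.997 CPM in MTCH2 F/F EpiLCs, and the inhibitors of differentiation Id3 and Id4 rose by 2.30 and 2.64. Of the Wnt targets 10 of 24 rose and 7 fell (41.7% and 29.2%), near the shares of all genes tested. Notum, a secreted Wnt deacylase, had 32.3, 39.6 and 33.3 CPM in MTCH2-/- EpiLCs and 2.89, 3.78 and 3.52 CPM in MTCH2 F/F EpiLCs (log2 fold change 3.36), and Axin2 rose by 0.66. The Notch ligands Dll1 and Dll3 fell by 1.72 and 1.97, and Hes1 rose by 0.94.

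Markers of other cell types were followed over their whole lists, beside 32.3% of all genes tested called higher and 30.2% lower. In bulk RNA, fewer cells of a type and less RNA per cell cannot be told apart, and the same holds for the reverse. Of the fibroblast markers 8 of 19 tested rose, 3 fell, and S100a4, Lum, Twist2, Prrx1 and Ccl2 were below the filter. Their summed level was 1968 to 2217 CPM in MTCH2-/- EpiLCs and 1166 to 1546 CPM in MTCH2 F/F EpiLCs, most of it fibronectin (Fn1, 1682, 1852 and 1629 CPM in MTCH2-/- EpiLCs and 879, 965 and 1265 CPM in MTCH2 F/F EpiLCs), which ESCs also make. The collagen gene Col1a1 had 10.0, 7.55 and 6.22 CPM in MTCH2-/- EpiLCs and 3.28, 3.44 and 3.93 CPM in MTCH2 F/F EpiLCs. Pdgfrb rose by 2.87, Col3a1 by 1.66, Lox by 0.77, Col1a2 by 0.73, Fbn1 by 0.66 and Vim by 0.48. The calls of Lox and Col1a2 were each lost in 3 of the 13 alternative fits. The markers that fell were Tagln, Dcn and Thy1, by 1.63, 1.30 and 0.98. Their part in the other results was not tested. Of the trophoblast and simple epithelium markers 9 of 15 rose and 1 fell, and Elf5, Tpbpa and Plac1 were below the filter. These markers summed to 122 to 142 CPM in MTCH2-/- EpiLCs and 82.9 to 105 CPM in MTCH2 F/F EpiLCs. Gata2 rose by 3.44 and the keratin Krt8 by 0.93, Krt18 fell by 1.12, and Cdx2 was not called (0.61, adjusted p = 0.539). Of the primitive endoderm markers 15 of 21 rose and 3 fell. The list summed to 1761 to 2085 CPM in MTCH2-/- EpiLCs and 1541 to 1618 CPM in MTCH2 F/F EpiLCs. Dab2 was among those that fell, by 1.16 (SE 0.15), from a mean of 7.35 CPM in MTCH2 F/F EpiLCs to 3.29 CPM. Sox7 had 13.6, 14.6 and 14.9 CPM in MTCH2-/- EpiLCs and 0.819, 0.776 and 1.17 CPM in MTCH2 F/F EpiLCs (log2 fold change 3.97), and Gata4, at 11.0, 8.44 and 8.73 CPM in MTCH2-/- EpiLCs and 3.603, 3.88 and 3.17 CPM in MTCH2 F/F EpiLCs, rose by 1.4. Gata6 stood at 1.25, 1.21 and 1.25 CPM in MTCH2-/- EpiLCs, against 0.6005, 0.339 and 0.469 CPM in MTCH2 F/F EpiLCs, and Foxa2, Afp and Foxq1 were below the filter, and the levels of Gata4 and Gata6 were low in both groups.

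Genes of the 2-cell-like state, a rare condition of ESC cultures, stood at very low levels. Of the 21 present among the gene symbols, 11 passed the filter, some of them through the MTCH2-/- EpiLCs alone, so that their common direction (11 called higher) is partly set by the filter. Together the 11 had 14.3 to 22.1 CPM in MTCH2-/- EpiLCs and 1.29 to 4.04 CPM in MTCH2 F/F EpiLCs. Zscan4d had 4.05, 2.88 and 2.36 CPM in MTCH2-/- EpiLCs and 0.873, 0.436 and 0.176 CPM in MTCH2 F/F EpiLCs, and reads of the Zscan4 genes may be shared among near-identical copies. Tdpoz1, with no count in any F/F EpiLC library, averaged 0.998 CPM in MTCH2-/- EpiLCs, at least 18.9-fold higher than 3 counts over the F/F group would give. Markers of germ layers were at low levels, with 16 of 29 called higher and 3 lower (55.2% and 10.3%). Over all genes tested the shares were 32.3% and 30.2%. T, or Brachyury, was not called (−1.01, adjusted p = 0.156), at 0.223, 0.210 and 0.145 CPM in MTCH2-/- EpiLCs and 0.710, 0.242 and 0.235 CPM in MTCH2 F/F EpiLCs. Eomes rose by 1.43, while the neural gene Sox1 fell by 0.66.

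Proliferation genes were slightly lower and stress genes mixed. Of 40 cell cycle genes 29 fell and 6 rose (median −0.37). Cyclin E1, Ccne1, had 62.6, 84.9 and 67.1 CPM in MTCH2-/- EpiLCs and 242, 252 and 206 CPM in MTCH2 F/F EpiLCs (log2 fold change −1.71, SE 0.15), and Cdk1 fell by 0.62, Mki67 by 0.38 and Ccnd1 by 0.95. The 6 that rose were Cdkn1a, Cdkn1b, Cdkn2b, Rb1, Rbl2 and E2f2, of which all but E2f2 encode proteins that restrain the cycle. Among p53 targets 19 of 27 rose and 4 fell (median 0.48), with Perp at 86.8, 72.7 and 108 CPM in MTCH2-/- EpiLCs and 14.3, 11.3 and 12.1 CPM in MTCH2 F/F EpiLCs and Mdm2 rising by 1.26. Of the integrated stress response 16 of 37 rose and 10 fell (43.2% and 27.0%, beside 32.3% and 30.2% of all genes tested). Atf4 was not called (−0.04, adjusted p = 0.604), whereas Atf5 rose by 1.83 and the secreted factor Gdf15 by 2.09. In the BCL2 family, whose member BID is the ligand of MTCH2, 12 of 20 fell and 4 rose. Bid itself rose by 0.22 (SE 0.06), Bcl2l1, which encodes BCL-XL, by 0.91, Bax was not called (−0.09, adjusted p = 0.22), and Bok and Bnip3 fell by 2.28 and 2.23.

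Adhesion was rearranged without a common direction, with 11 of 25 genes higher and 11 lower. That is 44% each way, beside 32.3% higher and 30.2% lower over all genes tested. The claudin Cldn7 had 6.15, 5.98 and 5.21 CPM in MTCH2-/- EpiLCs and 27.9, 30.9 and 22.99 CPM in MTCH2 F/F EpiLCs, and Epcam fell by 1.23, while the desmosomal genes Dsp and Dsg2 rose by 2.46 and 1.84. Of integrin and basement membrane genes 19 of 32 rose and 6 fell, led by Itgb4 and Lamb3, whose proteins anchor epithelia to laminin (2.32 and 2.32). In cholesterol synthesis 1 library stood apart. The summed level of the list was 3226 CPM in the MTCH2-/- library of clone 1 and 5260.3 and 5155.5 CPM in those of clones 2 and 3, against 5661, 5759.6 and 5047 CPM in MTCH2 F/F EpiLCs of clones 1, 2 and 3. The median within-clone difference of log2(CPM + 1) was −0.91 in clone 1, −0.23 in clone 2 and −0.09 in clone 3. In that list 10 of 26 genes were called lower and 2 higher, with 8 and 3 when that library was left out and 4 lower in the 6-library fit with the clone block. Imprinted genes showed no common direction, 9 of 30 being called in each. Plagl1 had 46.2, 26.1 and 56.4 CPM in MTCH2-/- EpiLCs and 5.90, 3.54 and 6.80 CPM in MTCH2 F/F EpiLCs, Dio3 rose by 4.26 and Nnat fell by 1.90. Peg3 ordered by clone in both genotypes, at 484, 418 and 831 CPM in MTCH2-/- EpiLCs and 854, 762 and 1395 CPM in MTCH2 F/F EpiLCs, and passed the test only where the clone entered as a block (adjusted p = 2.27e-07 against 0.168).

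**Figure D4:**
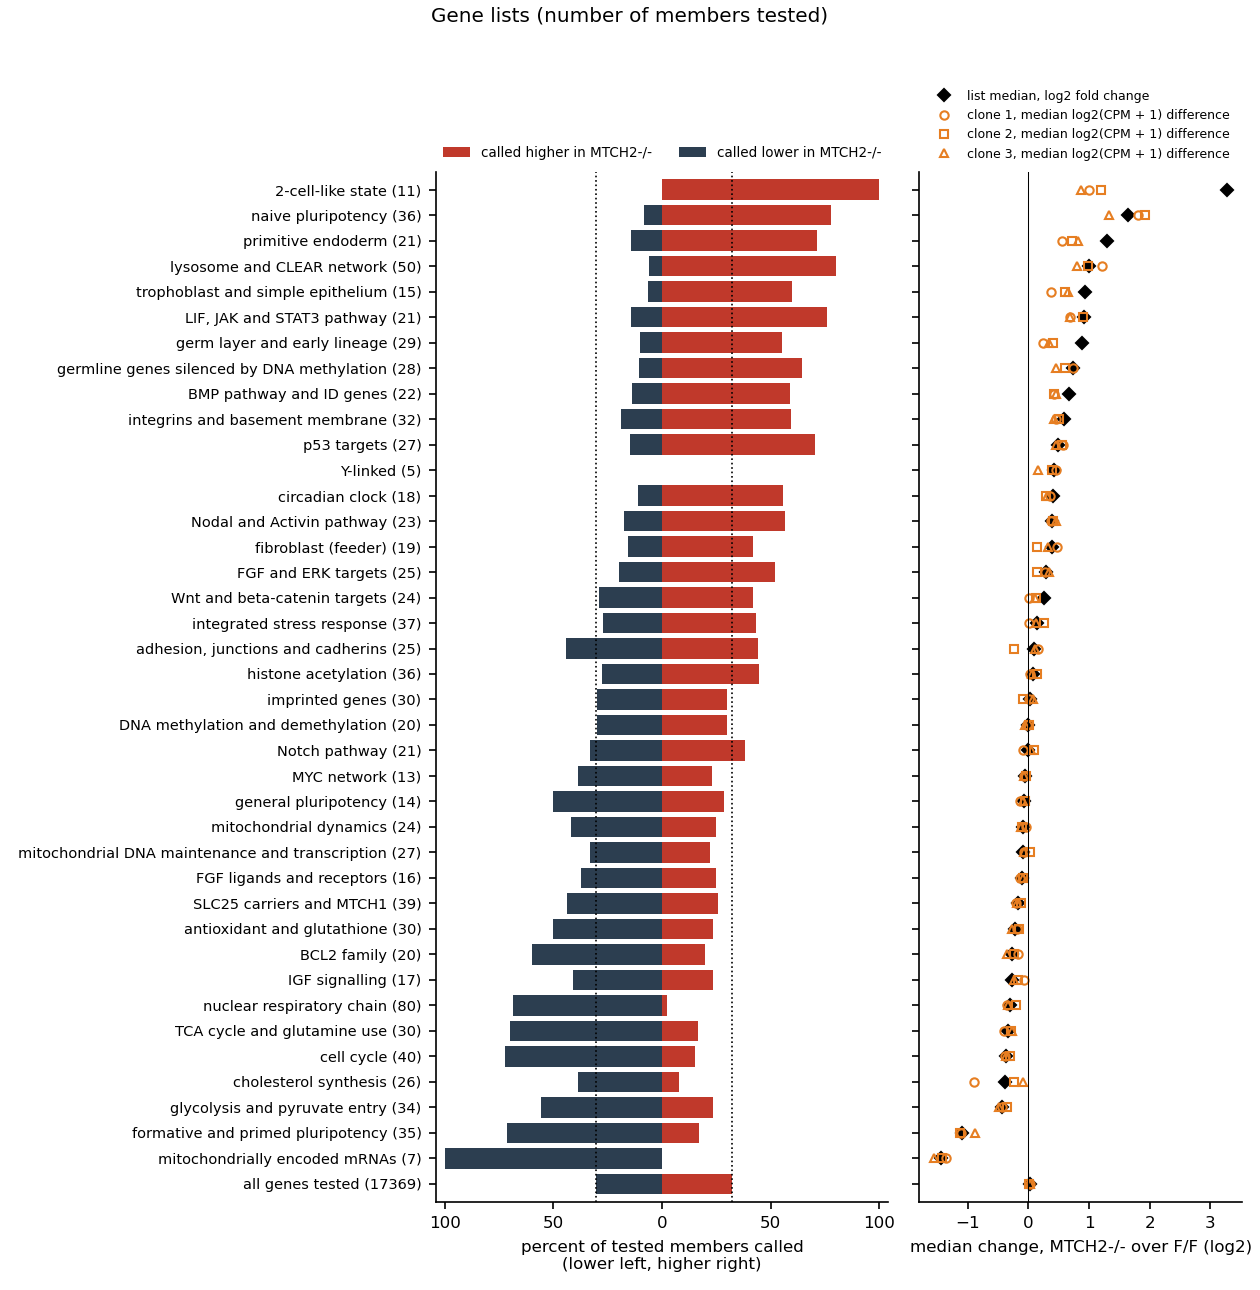
Left, percent of the tested members of 39 gene lists called higher (red, right) or lower (dark, left) in MTCH2-/- EpiLCs, with dotted lines at the 32.3% and 30.2% of all genes tested. Right, the median log2 fold change of each list (diamonds) and its median within-clone difference of log2(CPM + 1) in the 3 clones (open symbols); for lists of low counts the within-clone values are pulled to 0.

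By chromosome, the medians of the X and of the mitochondrial genome lay below those of the autosomes. Among genes whose mean level reached 10 CPM the median log2 fold change was −0.05, and it ran from −0.09 to 0.04 on the autosomes. On the X chromosome the median of 338 genes was −0.24, with 50.6% called lower and 19.8% higher, against 38% and 31.3% of all such genes. The Y chromosome had only 3 such genes, with a median of 0.42 and none called. In order of clone, the Y-linked list summed to 168, 220 and 27.4 CPM in MTCH2-/- EpiLCs. In MTCH2 F/F EpiLCs it summed to 105, 161 and 18.998 CPM. Clone 3 was thus the lowest in both genotypes, and the MTCH2-/- sum was the higher in every clone. None of the 5 Y-linked genes tested was called without the clone as a block, and some were called higher with it. The lower X-linked median was present in each clone, at −0.29, −0.21 and −0.20. Xist, the RNA that silences an X chromosome, was not called (0.56, adjusted p = 0.584) and was highest in clone 1 of both genotypes, at 56.0, 8.44 and 11.8 CPM in MTCH2-/- EpiLCs and 33.4, 8.97 and 9.73 CPM in MTCH2 F/F EpiLCs. The part of Xist in the X-linked median was not tested.

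**Figure D5:**
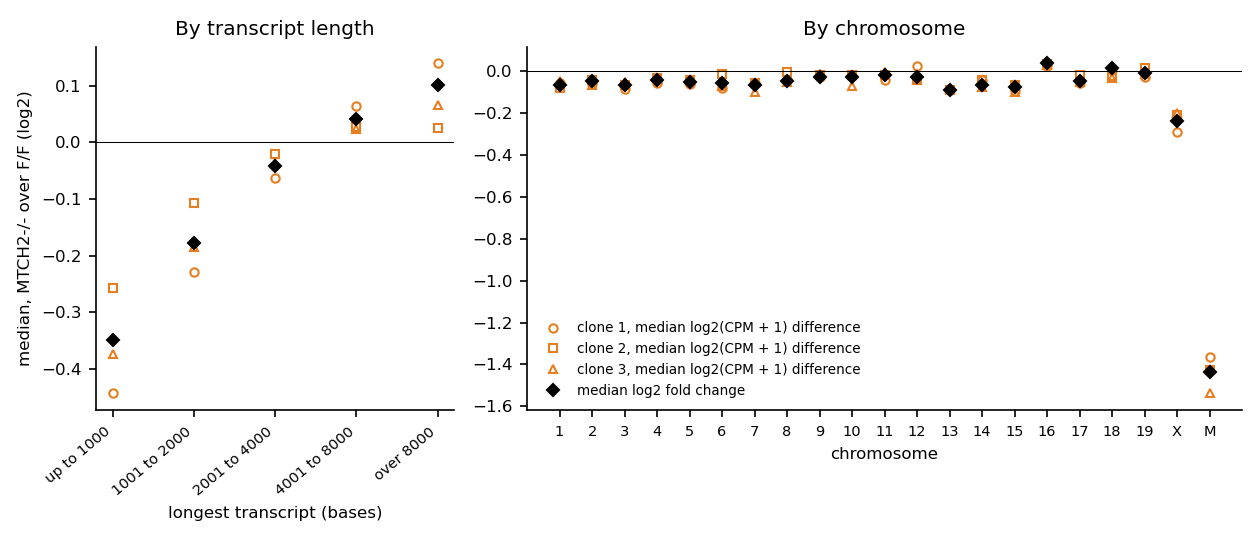
Median change of MTCH2-/- over MTCH2 F/F EpiLCs by the length of the longest annotated transcript (left, protein-coding genes) and by chromosome (right), for genes whose mean level reached 10 CPM. Diamonds are medians of log2 fold changes and open symbols the 3 clones; medians rise with length, −0.35 up to 1000 bases and 0.10 above 8000, and the X and mitochondrial (M) chromosomes lie below the autosomes (the Y chromosome, with 3 genes, is not drawn).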

How the data were processed

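Poly-A RNA was sequenced from MTCH2-/- and MTCH2 F/F cells as EpiLCs and as ESCs (3 libraries in each of 4 groups). Reads were aligned by the authors to GRCm38 (TopHat2 2.0.10), who made the deposited counts per gene symbol with HTSeq 0.6.1p1 from an Ensembl annotation; bcl2fastq 2.16.0.10 is named in the submitters' processing notes. The TruSeq v2 kit does not mark strand, and whether counting used strand was not stated in the sources read, so overlapping and antisense genes cannot be told apart. A second deposited signal, the count divided by a DESeq2 1.6.3 size factor by the authors, served only to check the scaling. A further deposited table holds the authors' own fold changes and adjusted p-values between groups and was not used. No other columns of per-sample values were set aside (0).

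Differences were tested on the deposited counts with edgeR 4.0.16 (R 4.3.3, limma 3.58.1): filterByExpr (17369 of 46477 symbols tested), TMM scaling, a robust quasi-likelihood fit of all 12 libraries in 4 groups with no block, the contrast MTCH2-/- minus MTCH2 F/F EpiLCs, with p-values adjusted by Benjamini-Hochberg across the 17369 genes. Every adjusted p in the text is from this edgeR test unless an alternative is named. CPM come from the same fit, and comparisons of levels are made within a gene. The EpiLC libraries held 17453328 to 21398559 counts. P-values set a change against the spread between the 3 libraries of a group, estimated over all 4 groups and moderated across genes. The main fit takes the libraries as independent, although each clone number recurs in every group. Alternatives were the clone as a block, the 6 EpiLC libraries alone with and without that block, RLE scaling, DESeq2 1.42.0, no filter, a stricter filter, and each EpiLC library left out in turn. The procedure was tested on simulated counts with known changes.

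The clone numbers pair the libraries, since each MTCH2-/- line was made from the F/F line of the same number. Deviations from the group means, over 14841 genes, correlated at 0.2376, 0.2583 and 0.1795 within clones 1, 2 and 3 and at -0.1935 to -0.03584 between clones.

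Members and gene lists were chosen with earlier results of these data known. Named genes were Mtch2, Mtch1 and the genes the study followed by qPCR or staining; the 10 largest changes in each direction among DE genes that averaged 10 CPM or more in EpiLCs, did not overlap between groups and had an informative symbol; the 8 largest differences in mean CPM in each direction; and, of each list, its key members and up to 4 further called members of largest change. Aldoa, Cdkn1b, Cdkn2b, E2f2, Eno1, Eno2, Gapdh, Gla, Gm2199, Mpc1, Mpc2, Naglu, Pdhb, Pdk1, Pdk3, Pfkm, Pfkp, Pgk1, Rbl2 and Xist fall outside that rule or were added after their values were seen, as were the promoter windows shown. Positions come from GENCODE vM21 (GRCm38), in which 16395 of the 17369 tested symbols (94.4%) had 1 match, and promoter windows from RefSeq (GRCm38.p6), with genes of chromosome 18 left out.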

Additional observations from a re-analysis of the deposited data

Results flagged for a closer look

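The effect of MTCH2 loss was not the same in EpiLCs as in ESCs for most of the genes of largest change. Each value below is the log2 fold change of MTCH2-/- over MTCH2 F/F in EpiLCs minus that in ESCs, from the interaction term of the edgeR fit of 12 libraries. Of the 20 genes of largest change 17 passed that test. They had been picked for their change in EpiLCs, which favours a larger change there than in ESCs. The test was also passed by 135 of the 231 key list members and by 35% of all genes tested. Groups of 3 are too small for a test of single outlying libraries.

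Among genes that were higher in MTCH2-/- EpiLCs, the difference was 5.15 for Mras (adjusted p = 5.34e-10), 4.93 for Aqp3, 4.87 for Prdm14 (adjusted p = 7.77e-10), 4.57 for Jam2 and 4.46 for Ntn1. It was 3.58 for Pla2g7 (adjusted p = 0.00448), 3.36 for Myof, 2.99 for Crtac1 and 1.91 for Mst1. Mras averaged 80.7 CPM in MTCH2-/- ESCs, against 79.0 CPM in MTCH2 F/F ESCs, and Jam2 averaged 532 CPM in MTCH2-/- ESCs, against 522 CPM in MTCH2 F/F ESCs. Prdm14 averaged 55.8 CPM in MTCH2-/- ESCs, against 83.2 CPM in MTCH2 F/F ESCs, the reverse of its order in EpiLCs. Aqp3 was higher in both states, with 741 CPM in MTCH2-/- ESCs, against 332 CPM in MTCH2 F/F ESCs.

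Among genes that were lower in MTCH2-/- EpiLCs, the difference was -4.72 for Myl9, -4.39 for Igfbp5 (adjusted p = 8.12e-09), -3.96 for Fam57b, -3.79 for Doc2a, -3.56 for Cxcl12, -2.54 for Tubb4a and -1.57 for Ldha. Igfbp5 averaged 1.70 CPM in MTCH2-/- ESCs, against 1.82 CPM in MTCH2 F/F ESCs. Ldha was lower in ESCs too, at a mean of 99.99 CPM in MTCH2-/- cells against 251 CPM in F/F cells. Mtch2 itself gave 0.54 (adjusted p = 0.0211), its remaining level being alike in both states (1.86 CPM in MTCH2-/- ESCs) and its F/F level higher in ESCs (177 CPM). Gpnmb, Enpp2 and Car4 did not pass the test (adjusted p = 0.427, 0.288 and 0.465). For Enpp2 and Car4 no ESC library reached 0.13 CPM, and their fitted changes in ESCs rest on few counts.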

How the results depend on the processing

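The counts of genes called higher, called lower, DE higher and DE lower stayed within 1.5 times those reported in every alternative but one. With the clone as a block they were 5966, 5622, 2452 and 1237, which were the calls of the paired analysis. With the 6 EpiLC libraries alone they were 5192, 5016, 2101 and 1176, and with RLE scaling 5458, 5380, 2401 and 1260. DESeq2 gave 5247, 5213, 2310 and 1212, and no filter gave 5737, 5464, 2887 and 1500. The exception was the filter at a mean of 10 CPM, which left 10071 genes tested and gave 3537, 3527, 770 and 354. Leaving out 1 library at a time gave 4967 to 5550 called higher, 4747 to 5100 lower, 2283 to 2611 DE higher and 1176 to 1343 DE lower. The median over all genes tested ran from -0.00167 to 0.0275. DE genes changed at least 2-fold within every clone numbered 2311 with a pseudocount of 0.1 against 1387 with 1.

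Of 397 named genes tested, none changed direction past the threshold in these alternatives. With the clone block 10 more passed the test (Sall4, Dusp6, Tdgf1, Sp5, Insig1, Igfbp3, Irs2, Peg3, Peg10 and Slc25a4) and Dusp4 no longer did (adjusted p = 0.0607); it changed no other named call. With the block 3 of the 5 Y-linked genes tested were called higher, against 0 without it. In cholesterol synthesis 5 genes were called lower with the 6 EpiLC libraries alone, and 6 without F/F library 1 or F/F library 2, against 10. In the 2-cell-like list 17 of 21 genes were called higher with no filter. Single genes near 1 CPM and changes near the threshold are limited by depth and by 3 libraries a group.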
